A study of Homo sapiens with 15 samples.

Results

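CAKi-1 cells that had lost ANGPTL4 (A4KO) were compared with wild-type (WT) CAKi-1 cells by RNA sequencing, across every gene that was measured. The libraries were taken by their labels alone, as the line CAKi-1 with either genotype, which gave 9 of the 15 samples of the series, 4 WT and 5 A4KO. CAKi-1 is an established line of human clear cell renal cell carcinoma with an intact VHL gene. A4KO cells came from a CRISPR-Cas9 pool, from which single clones with loss of ANGPTL4 were grown and put together again, so that the A4KO line is a mixture of clones. The control is described in conflicting ways: the paper names the parental cells as the WT of this line, and the text deposited with the data names clones that had kept ANGPTL4. If the parental cells were used, the passage through single clones and the loss of ANGPTL4 cannot be told apart. The labels give RPMI as the medium and the paper gives DMEM, and neither says whether replicates were grown as separate cultures. The question asked is which transcripts change when this secreted regulator of lipid uptake is lost. The other 6 samples are of a second line, 786O, and were not used.

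ANGPTL4 is a secreted protein whose N-terminal part inhibits lipoprotein lipase and whose fibrinogen-like C-terminal part acts on vessels and matrix, and its gene is a target of hypoxia-inducible factors and of the fatty acid receptors of the PPAR family. Clear cell carcinoma of the kidney is thought to arise from the epithelium of the proximal tubule, and tubule cells that are injured or inflamed are known to secrete lipocalin 2, complement and acute phase proteins under the control of NF-kB. The same cells can trade keratins and junctions for matrix and mesenchymal genes under TGF-beta, and the gene groups below follow these roles.

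Poly(A) RNA had been sequenced as paired reads of 150 bases, and each value is in TPM, the share of a gene among all transcripts of its library after scaling for transcript length. The paper states 3000000 reads per sample, but TPM does not keep the reads, so the depth of each library and its counting error are unknown. The table held 16296 genes, with 0 values at exactly 0, and the libraries summed to between 961437 and 973887 TPM. Mitochondrial genes took between 6.22% (WT replicate 4) and 7.79% (A4KO replicate 1) of the total. The 10 most abundant genes took 10.7% and 10.6% of the total in A4KO replicates 1 and 4, and between 8.16% and 9.11% in the other libraries.

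The 5 A4KO libraries fell into the 2 sets named in the comparison. Across genes, on log2(TPM + 1), Pearson's r was 0.997 between A4KO replicates 1 and 4 and between 0.996 and 0.997 among A4KO replicates 2, 3 and 5, but between 0.988 and 0.991 from one set to the other. These values describe the libraries, since genes are not independent replicates. The labels name no such split, so the sets were not tested against each other. Each set was compared on its own with the same 4 WT libraries, and the pair of results shares those controls. Across all genes, WT replicates 3 and 4 stood nearer to every A4KO library than WT replicates 1 and 2 did. Pearson's r with A4KO replicate 1 was 0.966, 0.965, 0.970 and 0.974 for WT replicates 1 to 4. Many inflammatory genes showed this order. IL6, for example, was at 5.38, 10.7, 33.2 and 145 TPM in WT libraries 1 to 4. For that reason A4KO was also compared with WT replicates 1 and 2 alone, an alternative chosen after seeing the data.

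ANGPTL4 itself (chr19:8363289-8374370, plus strand, hg38) was at 74.9, 83.2, 86.9 and 71.7 TPM in WT libraries 1 to 4, 2.87, 2.87 and 2.90 TPM in A4KO replicates 2, 3 and 5, and 7.26 and 6.47 TPM in A4KO replicates 1 and 4. All 5 A4KO libraries lay below all 4 WT libraries, and replicates 1 and 4 kept more of the transcript than the other 3. The mean was 79.2 ± 7.06 TPM (SD, n = 4) in WT and 4.48 ± 2.20 TPM (SD, n = 5) in A4KO, a log2 difference of -3.96 (SE 0.25, limma adjusted p = 1.2e-05). An exact two-sided permutation test gave p = 0.0159, the smallest that 4 against 5 libraries can give.

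**Figure D1:**
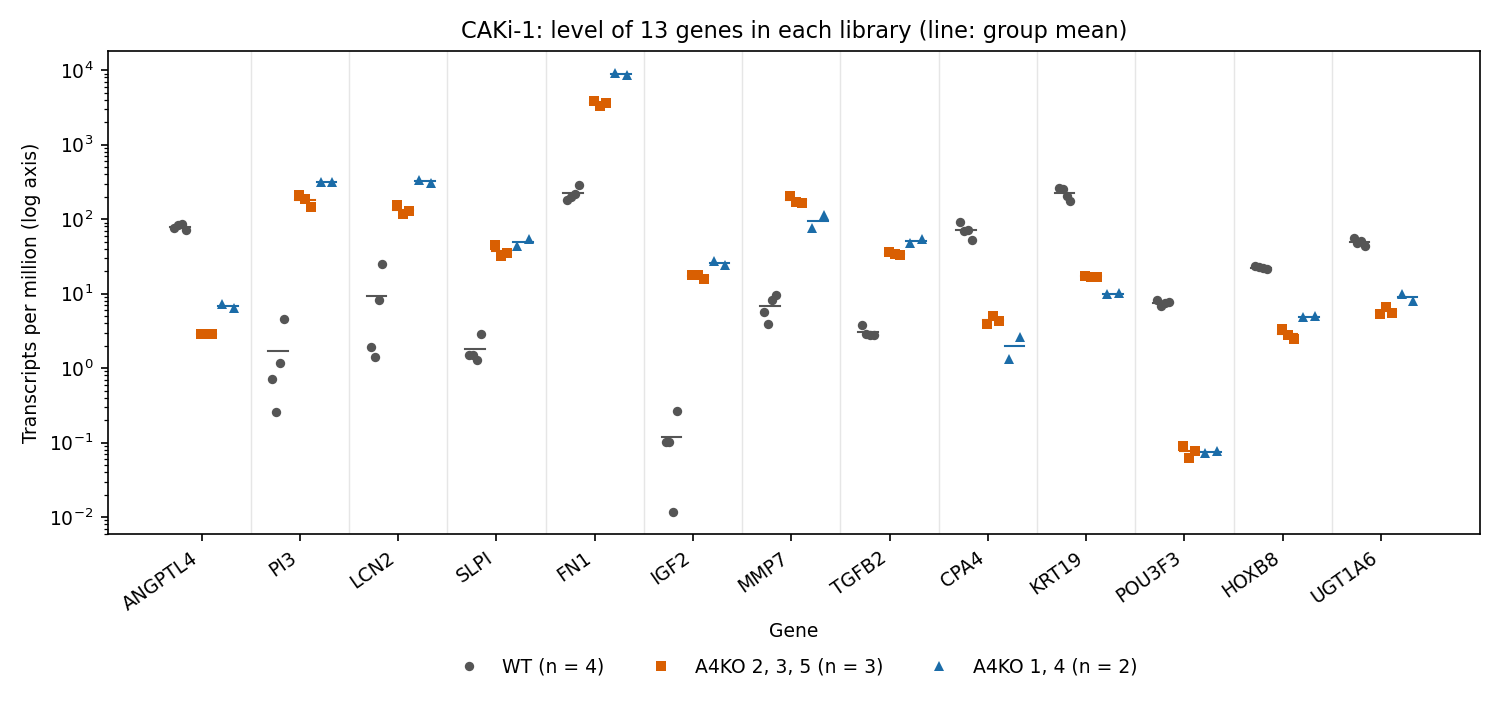
Levels of 13 genes named in the text in each CAKi-1 library, in TPM on a log axis, with WT as circles, A4KO replicates 2, 3 and 5 as squares, A4KO replicates 1 and 4 as triangles, and a line at each group's mean. All were taken from genes chosen for having no overlap of WT and A4KO, so that their ranges are apart by selection. FN1 reached 9235 TPM in A4KO replicate 1 against at most 287 TPM in WT.

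Of 16296 genes, 543 were called, which here means an absolute log2 difference of at least 1 with a limma adjusted p of at most 0.05 over all genes. These were 360 higher in A4KO (2.21% of all genes) and 183 lower (1.12%). In 528 of the 543 no A4KO library lay within the range of WT, which a call makes likely. The share without overlap among all genes was not counted. With A4KO replicates 2, 3 and 5 alone 261 genes were called higher (1.6%) and 151 lower (0.927%). With A4KO replicates 1 and 4 alone 648 were called higher (3.98%) and 436 lower (2.68%). Of the 543 genes, 351 were called in the same direction with each set, 226 higher and 125 lower, and such a gene is said here to hold in both. A further 153 were called with replicates 1 and 4 only, 33 with replicates 2, 3 and 5 only, and 6, mainly chemokine and cytokine genes, with neither. All 543 differed in the same direction in both sets. That is no separate result, since the genes were called with both sets pooled and the sets share the WT libraries. Against WT replicates 1 and 2 alone 383 genes were called higher (2.35%) and 215 lower (1.32%), 488 of them among the 543. The adjusted p alone, with no fold change threshold, was passed by 2916 genes higher (17.9%) and 3432 lower (21.1%). Counts of each list below are to be read beside these shares and those of the calls. For lower genes it was passed by 3613 with replicates 2, 3 and 5 (22.2%) and by 4436 with replicates 1 and 4 (27.2%). The p-values measure the spread between libraries, which may be technical, and differences on log2(TPM + 1) understate changes of genes near or below 1 TPM. An unadjusted p under 0.05 was met by 3652 genes higher (22.4%) and 4226 lower (25.9%). The median log2 difference of all genes was -0.01.

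Against WT replicates 1 and 2 alone, some genes named below were not called. PTGDS, CLDN3, IRS2, ACSL4 and NDRG1 had an adjusted p of 0.0621, 0.0605, 0.0575, 0.0684 and 0.182, and SMAD3, ACSL5 and OSR2 a log2 difference of -0.93, -0.92 and 0.98. By list, the number called higher went from 7 to 17 for cytokines and NF-kB feedback, from 2 to 0 for renal lineage transcription factors and from 1 to 2 for metallothioneins, and from 0 to 1 for lysosomal genes and for p53 targets. The number called lower went from 4 to 6 for HOX genes, from 1 to 3 for NRF2 targets and from 2 to 1 for the TGF-beta and BMP pathway. It went from 1 to 2 for mesenchymal genes and for angiogenic factors, and from 0 to 1 for insulin and IGF genes. In the remaining lists each count differed by at most 1.

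**Figure D2:**
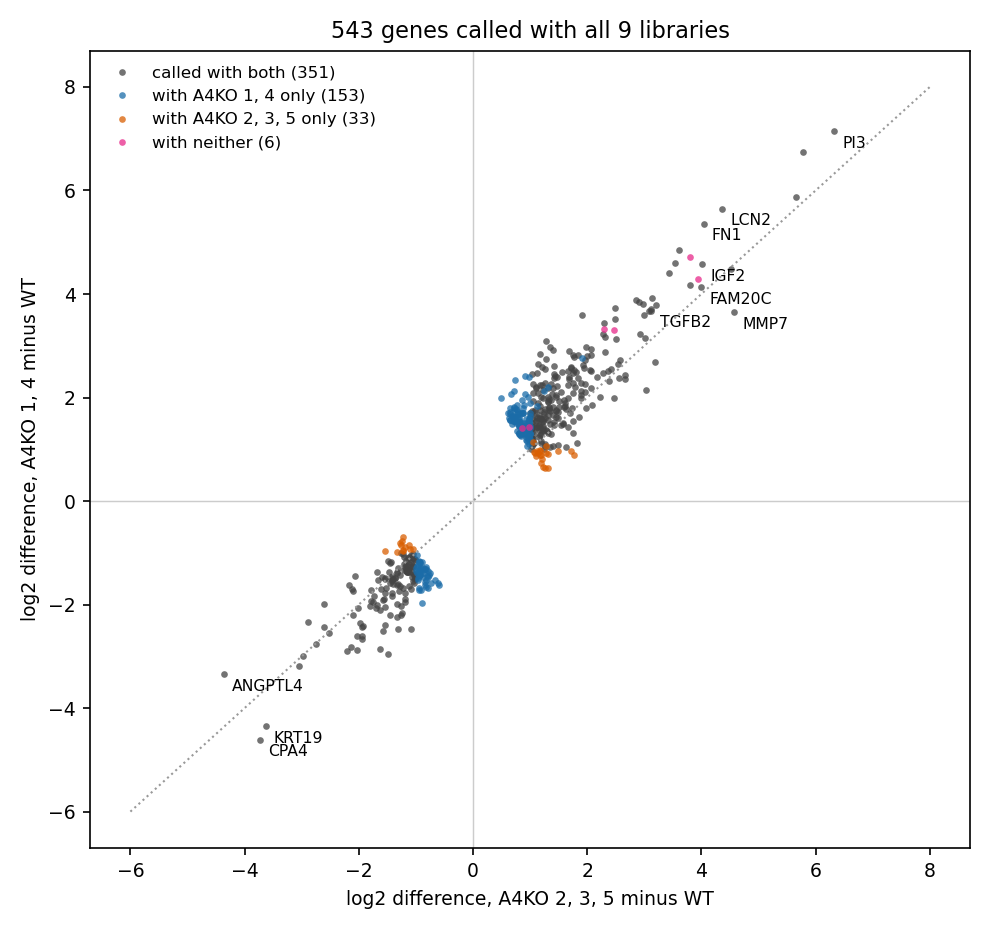
Log2 difference from WT for the 543 called genes, with A4KO replicates 2, 3 and 5 on the horizontal axis and A4KO replicates 1 and 4 on the vertical axis, coloured by the set or sets in which each gene was called. Both axes use the same 4 WT libraries; ANGPTL4 lies above the dotted line of equal values and KRT19 below it.

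PI3 and LCN2, the 2 largest rises outside the chemokines, belong to epithelial defence and the acute phase response, the antimicrobial proteins, protease inhibitors, complement and serum amyloid that epithelia release in inflammation. Of the 20 listed genes in the table, 14 were called higher and 1, CFI, lower, and 13 of these 15 held in both sets (adjusted p alone: 14 higher and 2 lower). The median log2 difference of the list was 2.39 with all libraries, 2.09 with A4KO replicates 2, 3 and 5 and 2.63 with replicates 1 and 4, beside -0.01 for all genes. PI3, the elastase inhibitor elafin, was at 0.705, 0.258, 1.16 and 4.59 TPM in WT libraries 1 to 4, 213, 185 and 147 TPM in A4KO replicates 2, 3 and 5, and 317 and 319 TPM in A4KO replicates 1 and 4. Every A4KO library stood far above every WT library, and WT replicate 4 was the highest of the WT. Its log2 difference was 6.65 (SE 0.42, adjusted p = 1e-05), or 6.32 with A4KO replicates 2, 3 and 5 and 7.14 with A4KO replicates 1 and 4.

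LCN2, the iron-binding lipocalin that marks tubule injury, was at 1.91, 1.42, 8.26 and 25.1 TPM in WT libraries 1 to 4, 153, 117 and 127 TPM in A4KO replicates 2, 3 and 5, and 335 and 307 TPM in A4KO replicates 1 and 4. The WT libraries differed among themselves, with replicates 3 and 4 above 1 and 2, and the lowest A4KO library was still 117 TPM. SLPI, a second elastase inhibitor, was at 1.49, 1.52, 1.30 and 2.90 TPM in WT libraries 1 to 4, 44.9, 32.4 and 34.6 TPM in A4KO replicates 2, 3 and 5, and 43.7 and 53.5 TPM in A4KO replicates 1 and 4, a log2 difference of 3.94 (SE 0.19, adjusted p = 2e-06). WT replicate 4 was the highest of its WT libraries, and the 2 A4KO sets overlapped. PI3 and SLPI lie near each other on chromosome 20, at chr20:45174902-45176544, plus strand, and chr20:45252239-45254564, minus strand.

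SAA2, an acute phase apolipoprotein, was at 94.5, 104, 335 and 796 TPM in WT libraries 1 to 4, 2308, 2001 and 2032 TPM in A4KO replicates 2, 3 and 5, and 3019 and 3305 TPM in A4KO replicates 1 and 4, and it rose by 3.45 on the log2 scale (adjusted p = 0.00164), 3.21 with A4KO replicates 2, 3 and 5 and 3.79 with A4KO replicates 1 and 4. The read-through transcript SAA2-SAA4 rose with it (log2 difference 3.45, adjusted p = 0.00116). SAA genes are close paralogs side by side on chromosome 11, and how reads were shared among them is not known. CFI, the protease that inactivates complement C3b, went the other way, from 7.55 ± 1.496 TPM (SD, n = 4) to 1.94 ± 0.160 TPM (SD, n = 5). The other 10 rises, named because they were called, were TNFAIP6, SAA1, PTX3, SAA4, C3, CFB, DEFB1, SERPINA1, C1R and CP. C3, the central complement protein, was at 89.3, 90.4, 170.3 and 302 TPM in WT libraries 1 to 4, 731, 641 and 722 TPM in A4KO replicates 2, 3 and 5, and 1365 and 1345 TPM in A4KO replicates 1 and 4. CFB, which joins it in the alternative pathway, was at 14.5, 14.7, 31.1 and 66.2 TPM in WT libraries 1 to 4, 121, 91.6 and 91.4 TPM in A4KO replicates 2, 3 and 5, and 321 and 332 TPM in A4KO replicates 1 and 4. For both, A4KO replicates 1 and 4 were the highest libraries. C1R and CP were called with replicates 1 and 4 and not with 2, 3 and 5 (log2 differences 0.80 and 0.84). C1R fell below the fold threshold without WT replicate 1 (0.9983) or A4KO replicate 4 (0.99), and CP without WT replicate 1 (0.95), WT replicate 2 (0.94) or A4KO replicate 4 (0.90).

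Summed over the list, WT replicates 1 to 4 held 703, 681, 1485 and 3260.1 TPM, A4KO replicates 2, 3 and 5 held 8211, 7299.7 and 7469.5 TPM, and A4KO replicates 1 and 4 held 10655 and 11269 TPM, with SAA1 the most abundant gene. SAA1 was at 247, 253, 668 and 1774 TPM in WT libraries 1 to 4, 4192, 3808 and 3897 TPM in A4KO replicates 2, 3 and 5, and 4727 and 5076 TPM in A4KO replicates 1 and 4. This sum was thus higher in WT replicates 3 and 4 than in 1 and 2, and below every A4KO library. Against WT replicates 1 and 2 alone the median of the list was 2.93, and how much the spread of the WT libraries adds to these calls was not tested. Of the listed genes, 17 were not in the table, among them S100A7, S100A8, S100A9, LTF and CRP.

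The 300-base RefSeq promoters (GRCh38.p14, from 250 bases before the start to 50 after) of the genes called higher in the lists of defence and of cytokines and NF-kB feedback were searched on both strands for the kappaB consensus, the motif that NF-kB dimers bind. Among the 14 defence genes called higher, 7 had an entry and 2 of these held a match, LCN2 and PTX3. PI3, SLPI, SAA2, SAA1, C3, DEFB1 and CP, which lie on several chromosomes, had no entry and were not searched. For the cytokine and NF-kB feedback genes described next, 6 of 7 had an entry, all but CSF1, and 4 held a match, IL6, VCAM1, NFKBIA and NFKBIZ. Of all 27305 genes in the RefSeq table used, which has no entries for 1 chromosome, 7.09% held one in at least 1 promoter. The second list was made of cytokines and genes known to answer to NF-kB, and list members that were not called higher were not searched. These counts therefore cannot tell whether matches go with the rise in A4KO. A match describes letters in this window and not a bound site, and overlapping matches on the 2 strands are printed as 1 stretch. The promoters of 4 of these genes are shown because they span secreted, cytokine and adhesion members, with the matches in capitals; they begin at base 76 for LCN2, 154 for PTX3, 178 for IL6 and 189 for VCAM1.
LCN2, chr9:128149203-128149502, plus strand: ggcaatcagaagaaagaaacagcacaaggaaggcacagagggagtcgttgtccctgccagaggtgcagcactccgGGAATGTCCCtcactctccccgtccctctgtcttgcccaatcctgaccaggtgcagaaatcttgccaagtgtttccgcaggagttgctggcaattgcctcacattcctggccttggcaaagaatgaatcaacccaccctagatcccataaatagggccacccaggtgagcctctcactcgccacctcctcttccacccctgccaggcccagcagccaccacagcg
PTX3, chr3:157436600-157436899, plus strand: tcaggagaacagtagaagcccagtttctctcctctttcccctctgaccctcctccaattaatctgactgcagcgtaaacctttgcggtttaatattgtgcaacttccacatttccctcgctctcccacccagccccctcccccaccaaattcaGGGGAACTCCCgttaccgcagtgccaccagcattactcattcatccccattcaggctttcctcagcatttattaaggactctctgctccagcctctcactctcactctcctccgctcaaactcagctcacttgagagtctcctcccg
IL6, chr7:22726950-22727249, plus strand: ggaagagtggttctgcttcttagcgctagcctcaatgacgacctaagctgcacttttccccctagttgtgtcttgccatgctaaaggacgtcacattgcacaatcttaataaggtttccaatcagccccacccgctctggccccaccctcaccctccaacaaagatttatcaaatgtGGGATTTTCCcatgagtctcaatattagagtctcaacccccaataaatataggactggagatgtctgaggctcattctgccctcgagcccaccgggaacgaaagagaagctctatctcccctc
VCAM1, chr1:100719492-100719791, plus strand: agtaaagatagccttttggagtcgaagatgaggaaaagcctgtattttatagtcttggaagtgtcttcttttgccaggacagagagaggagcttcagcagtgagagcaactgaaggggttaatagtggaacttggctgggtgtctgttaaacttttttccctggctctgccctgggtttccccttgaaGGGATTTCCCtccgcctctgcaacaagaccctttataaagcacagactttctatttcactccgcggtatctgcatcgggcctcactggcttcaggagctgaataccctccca

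Cytokines other than chemokines and the feedback genes of NF-kB were called in both directions. Of 41 genes in the table, 7 were called higher (IL6, ZC3H12A, VCAM1, IL11, CSF1, NFKBIA and NFKBIZ) and 1 lower (IL6R), and 5 of the 8 held in both sets. At the adjusted p alone 8 stood higher (19.5%) and 7 lower (17.1%), beside 17.9% and 21.1% of all genes. The 8 higher became 6 without WT replicate 2 and 19 without WT replicate 4. The median was 0.29, 0.18 without WT replicate 1, 0.42 without WT replicate 4 and 0.55 against WT replicates 1 and 2 alone. IL11, a cytokine of the IL6 family, was at 11.2, 9.17, 10.1 and 11.4 TPM in WT libraries 1 to 4, 37.8, 42.9 and 32.8 TPM in A4KO replicates 2, 3 and 5, and 66.4 and 59.2 TPM in A4KO replicates 1 and 4. The WT libraries had an SD of 1.04 TPM (n = 4) and lay below all 5 A4KO libraries, and the log2 difference was 2.05 (SE 0.20, adjusted p = 8.4e-05). VCAM1, an adhesion molecule for leukocytes that injured tubule cells also make, was at 105, 98.2, 169 and 249 TPM in WT libraries 1 to 4, 654, 569.9 and 601 TPM in A4KO replicates 2, 3 and 5, and 830.3 and 823 TPM in A4KO replicates 1 and 4. IL6R, the receptor that binds IL6, fell from 11.1 ± 1.18 TPM (SD, n = 4) to 3.34 ± 0.370 TPM (SD, n = 5) and fell in both sets. ZC3H12A, an RNase that cleaves cytokine mRNA, rose by 2.36 on the log2 scale (adjusted p = 0.00900), and its WT libraries ran from 6.65 to 63.3 TPM.

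IL6 showed how far these calls lean on single libraries. In A4KO it was at 134, 157 and 117 TPM in replicates 2, 3 and 5 and 269 and 217 TPM in replicates 1 and 4, and WT replicate 4 (145 TPM) lay within that range. It was called with all libraries (log2 difference 2.80, adjusted p = 0.0198) but with neither set alone (adjusted p = 0.0828 and 0.0568), and not without WT replicate 2 (adjusted p = 0.0608). NFKBIA, which holds NF-kB in the cytoplasm, lost its call without WT replicate 1, WT replicate 2, A4KO replicate 1 or A4KO replicate 4 (adjusted p = 0.0663, 0.0725, 0.0513 and 0.0524). NFKBIZ lost it without WT replicate 1 (log2 difference 0.90), and both were called with replicates 1 and 4 but not with 2, 3 and 5. Leaving out WT replicate 4 raised the number called higher in the list from 7 to 15, and WT replicates 1 and 2 alone gave 17. The number called lower became 2 without WT replicate 2, A4KO replicate 1 or A4KO replicate 4.

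Genes of antigen presentation were called in 1 direction only. Of 23, 4 were called higher and 0 lower (adjusted p alone: 11 higher and 2 lower), and 3 held in both sets. At the adjusted p alone the 2 lower became 1 without WT replicate 1 and 5 without A4KO replicate 5. HLA-B, a chain that presents peptides to T cells, was at 344, 305, 354 and 365 TPM in WT libraries 1 to 4, 798, 759 and 739 TPM in A4KO replicates 2, 3 and 5, and 1095 and 1076 TPM in A4KO replicates 1 and 4, a log2 difference of 1.36 (SE 0.14, adjusted p = 0.000103). HLA-F, a related chain, rose by 1.41 (adjusted p = 0.000257), and both held in both sets. HLA-C was called with replicates 1 and 4 (1.33) but not with 2, 3 and 5 (0.83), and it fell below the fold threshold without WT replicate 2 (0.98), A4KO replicate 1 (0.96) or A4KO replicate 4 (0.95). These genes are alike in sequence and reads may have been shared among them. The median of the list was 0.14, and the chaperone CALR, the most abundant gene by the mean of all 9 libraries, was not called (log2 difference -0.17).

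Interferon-stimulated genes were called in both directions. Of 42 that were measured, 2 were called higher, GBP2 among them, and 2 lower, IFI27 and IFITM2, and the adjusted p alone was passed by 5 higher and 15 lower. The median was -0.10, -0.15 with A4KO replicates 2, 3 and 5 and -0.08 with replicates 1 and 4. IFI27, a mitochondrial protein strongly induced by type I interferon, was at 202, 183, 200 and 189 TPM in WT libraries 1 to 4, 54.8, 42.9 and 44.4 TPM in A4KO replicates 2, 3 and 5, and 41.5 and 49.2 TPM in A4KO replicates 1 and 4. It fell by 2.04 on the log2 scale (SE 0.08, adjusted p = 8.9e-07), with no A4KO library above 54.8 TPM. GBP2, a GTPase of the interferon gamma response, went from 7.38 ± 1.69 TPM (SD, n = 4) to 28.2 ± 15.5 TPM (SD, n = 5) and held in both sets, and IFITM2 fell in both. The number called higher was 1 without A4KO replicate 4.

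In the pathway of prostaglandins and leukotrienes, with 24 genes measured, 4 were called higher and 1 lower; 4 of these 5 held in both sets (adjusted p alone: 6 higher and 2 lower). The median was 0.09. PTGDS, a prostaglandin D synthase, was at 5.36, 4.03, 3.72 and 3.10 TPM in WT libraries 1 to 4, 11.2, 13.4 and 7.66 TPM in A4KO replicates 2, 3 and 5, and 29.0 and 28.8 TPM in A4KO replicates 1 and 4. The 2 sets differed in level, with replicates 1 and 4 the highest, and the log2 differences were 1.21 with A4KO replicates 2, 3 and 5 and 2.58 with A4KO replicates 1 and 4. PTGER2, a receptor of prostaglandin E2, rose from 0.523 ± 0.151 TPM (SD, n = 4) to 3.43 ± 0.884 TPM (SD, n = 5), and ALOX5AP, which hands arachidonic acid to 5-lipoxygenase, rose from 1.53 ± 0.149 to 5.46 ± 0.857 TPM (SD, n = 4 and 5). PTGS1, the constitutive cyclooxygenase, fell from 6.11 ± 0.749 to 1.57 ± 0.245 TPM (SD, n = 4 and 5). PTGES, a prostaglandin E synthase, was called with replicates 1 and 4 only and lost its call without WT replicate 2 (adjusted p = 0.0510).

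**Figure D3:**
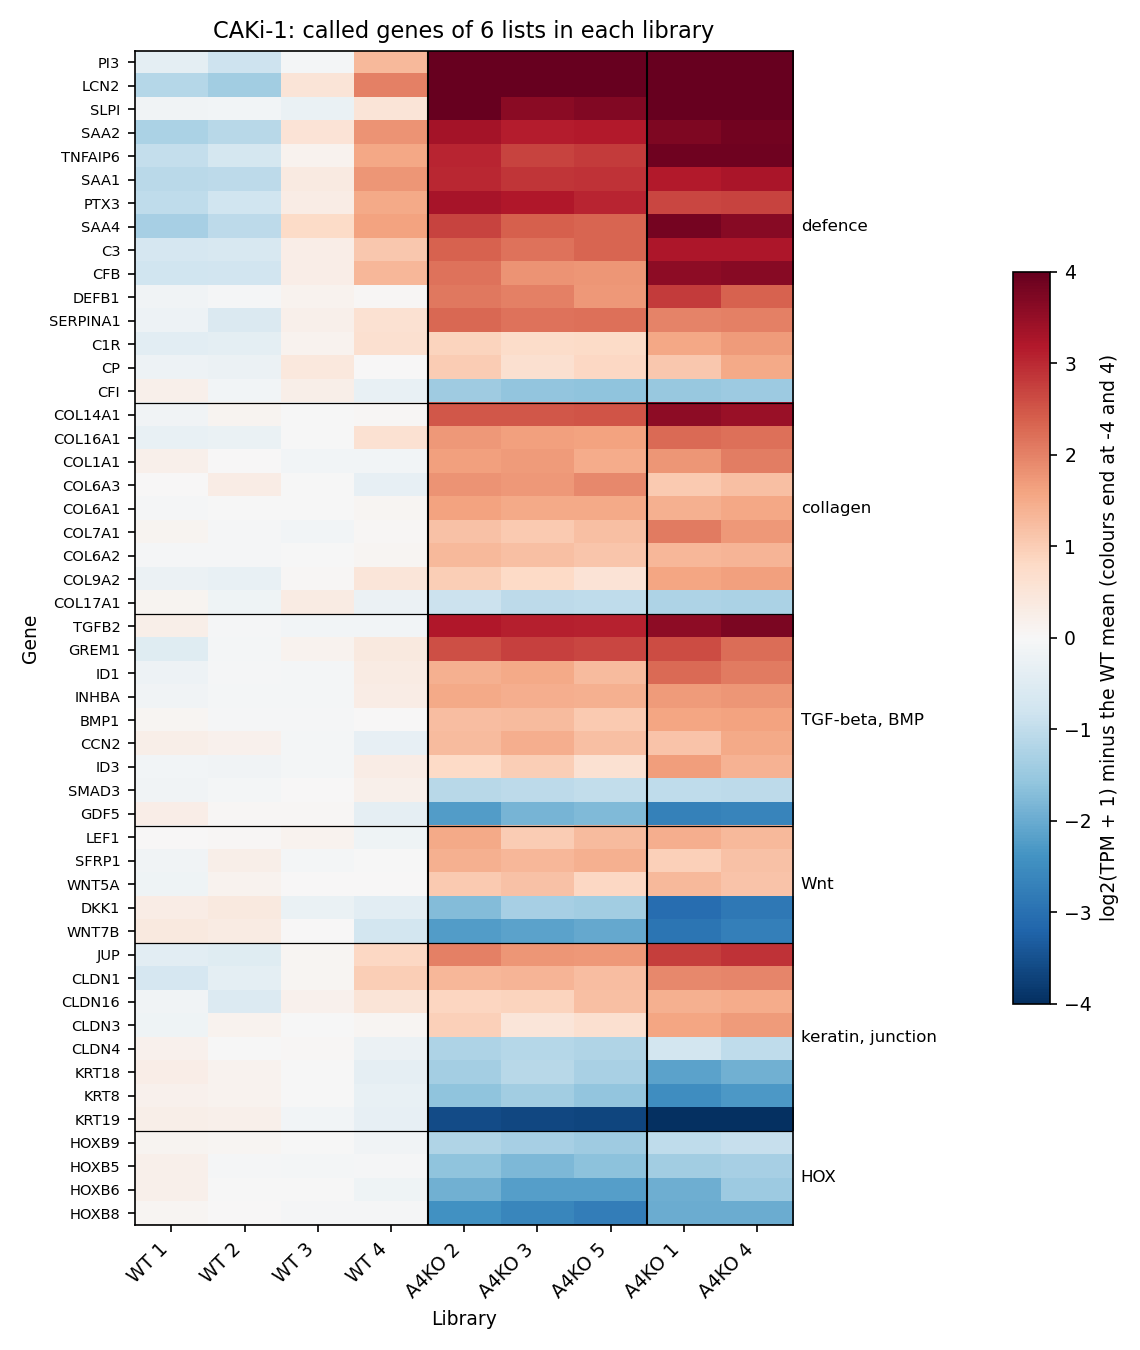
Called genes of 6 lists in each library, coloured by log2(TPM + 1) minus the mean of the 4 WT libraries, with WT, A4KO replicates 2, 3 and 5, and A4KO replicates 1 and 4 side by side; colours end at -4 and 4. Most defence genes were higher in WT replicate 4 than in the other WT libraries, and so was COL16A1, at 21.9 TPM against 11.2 to 13.7 TPM.

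FN1, which encodes fibronectin, was at 181, 197, 219.7 and 287 TPM in WT libraries 1 to 4, 3879, 3311 and 3599 TPM in A4KO replicates 2, 3 and 5, and 9235 and 8692 TPM in A4KO replicates 1 and 4. It was the most abundant gene of the mesenchymal list by the mean of all 9 libraries, while in WT VIM was. A4KO replicates 1 and 4 held more of it than the other 3. Its log2 difference was 4.57 (SE 0.34, adjusted p = 2.5e-05), 4.04 with A4KO replicates 2, 3 and 5 and 5.36 with A4KO replicates 1 and 4. All 33 listed collagen chains were in the table, and 8 were called higher and 1 lower, of which 7 held in both sets (adjusted p alone: 13 higher and 3 lower). The median of the collagens was 0.12, 0.16 with A4KO replicates 2, 3 and 5 and 0.24 with replicates 1 and 4.

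COL14A1, a fibril-associated collagen, was at 0.798, 1.15, 0.984 and 1.08 TPM in WT libraries 1 to 4, 10.1, 10.1 and 10.3 TPM in A4KO replicates 2, 3 and 5, and 22.9 and 20.8 TPM in A4KO replicates 1 and 4, a rise of 2.90 (SE 0.25, adjusted p = 5.4e-05). COL1A1, the main chain of type I collagen, was at 11.8, 10.2, 9.35 and 9.46 TPM in WT libraries 1 to 4, 33.8, 35.2 and 30.0 TPM in A4KO replicates 2, 3 and 5, and 36.7 and 45.3 TPM in A4KO replicates 1 and 4. COL16A1 and COL6A3 rose by 1.89 and 1.54. COL6A1 and COL6A2, like COL6A3 chains of type VI collagen, are neighbours on chromosome 21 and are named because they were called. They rose by 1.52 and 1.26 (limma adjusted p = 3.7e-07 and 2.7e-06). COL7A1, the collagen of anchoring fibrils, rose by 1.45. COL9A2 was called with replicates 1 and 4 only and fell below the fold threshold without A4KO replicate 1 (0.99) or 4 (0.97). COL17A1, a hemidesmosome component of epithelia, was lower, from 1.58 ± 0.470 to 0.204 ± 0.136 TPM (SD, n = 4 and 5). It was called with replicates 1 and 4 (-1.25) and just under the threshold with 2, 3 and 5 (-0.98), and without WT replicate 3 it was at -0.98, which leaves 0 collagens called lower.

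Other mesenchymal genes were divided. Of 29 that were measured, 3 were called higher (FN1, SNAI2 and TAGLN) and 1 lower (CDH2), all 4 in both sets (adjusted p alone: 9 higher and 10 lower). Without WT replicate 2 the 9 higher became 5. The median was 0.02, -0.06 with replicates 2, 3 and 5 and 0.16 with 1 and 4, and its sign changed without A4KO replicate 1 (-0.02) or A4KO replicate 4 (-0.02). SNAI2, a repressor of E-cadherin, was at 1.41, 1.41, 1.34 and 1.60 TPM in WT libraries 1 to 4, 7.13, 7.35 and 7.15 TPM in A4KO replicates 2, 3 and 5, and 6.38 and 5.80 TPM in A4KO replicates 1 and 4. CDH2, which encodes N-cadherin, was at 69.9, 66.3, 71.2 and 73.5 TPM in WT libraries 1 to 4, 28.8, 28.5 and 27.96 TPM in A4KO replicates 2, 3 and 5, and 24.5 and 26.6 TPM in A4KO replicates 1 and 4, so that the cadherin usually counted as mesenchymal was lower in every A4KO library. VIM was not called (-0.50, adjusted p = 0.000975). TAGLN, an actin-binding protein, rose by 1.07 and fell below the threshold without WT replicate 4 (0.97), where 2 genes were called lower, as they were without A4KO replicate 3 or 5. Of 35 laminins and integrins only ITGB3, the beta chain of the vitronectin receptor, was called, at 20.6, 24.2, 19.0 and 14.9 TPM in WT libraries 1 to 4, 63.9, 65.3 and 67.96 TPM in A4KO replicates 2, 3 and 5, and 66.7 and 63.9 TPM in A4KO replicates 1 and 4, a rise of 1.70 that held in both sets. The list's median was 0.04, -0.000129 with replicates 2, 3 and 5 and 0.23 with 1 and 4, and it passed to the other side of 0 without A4KO replicate 1 (-0.05) and under quantile normalization (-0.00196). The 1 call was 2.86% of the list, beside 2.21% of all genes called higher. The adjusted p alone was passed by 11 higher (31.4%) and 9 lower (25.7%), beside 17.9% and 21.1% of all genes.

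Matrix proteases and their inhibitors were called in both directions. Among the 41 genes, 6 were called higher and 4 lower, and 9 of the 10 held in both sets (adjusted p alone: 11 higher and 10 lower). The median of 0.01 changed sign without A4KO replicate 3 (-0.01) and under quantile normalization (-0.000949). MMP7, the matrilysin of injured epithelium, was at 5.69, 3.91, 8.17 and 9.64 TPM in WT libraries 1 to 4, 205, 169 and 165 TPM in A4KO replicates 2, 3 and 5, and 75.6 and 115 TPM in A4KO replicates 1 and 4. Unlike FN1, it was higher in replicates 2, 3 and 5 than in 1 and 4. The log2 difference was 4.21 (SE 0.31, adjusted p = 2.5e-05). The aggrecanase ADAMTS5 went from 0.0939 ± 0.0593 to 4.37 ± 2.59 TPM (SD, n = 4 and 5), and ADAMTS9 and ADAMTS10 rose by 2.05 and 1.54. MMP14 and MMP9, named because they were called, rose by 1.504 and 1.19. Among the falls, PLAU, the urokinase that activates plasminogen, was at 424, 459, 536 and 576 TPM in WT libraries 1 to 4, 208, 237 and 218 TPM in A4KO replicates 2, 3 and 5, and 191 and 191 TPM in A4KO replicates 1 and 4. It was lower in every A4KO library, and fell by 1.25 on the log2 scale (adjusted p = 4e-05). CPA4, a secreted carboxypeptidase, fell by 4.08 (adjusted p = 1.5e-05). ADAMTS15 was called with replicates 2, 3 and 5 only (-1.54 against -0.96 with replicates 1 and 4, adjusted p = 0.0612).

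The TGF-beta and BMP pathway gave calls in both directions. Among the 55 genes, 7 were called higher and 2 lower, 8 of these 9 in both sets (adjusted p alone: 19 higher and 12 lower), and the median was 0.13, 0.03 with replicates 2, 3 and 5 and 0.31 with replicates 1 and 4. TGFB2, a TGF-beta ligand, was at 3.78, 2.90, 2.77 and 2.77 TPM in WT libraries 1 to 4, 36.2, 33.8 and 32.8 TPM in A4KO replicates 2, 3 and 5, and 47.7 and 53.8 TPM in A4KO replicates 1 and 4. It rose by 3.35 (SE 0.16, adjusted p = 1.9e-06). INHBA, whose product forms activin A, was at 156, 162, 162 and 211 TPM in WT libraries 1 to 4, 488, 474 and 459 TPM in A4KO replicates 2, 3 and 5, and 564 and 579.6 TPM in A4KO replicates 1 and 4. GREM1, a BMP antagonist, was at 0.715, 1.29, 1.63 and 2.15 TPM in WT libraries 1 to 4, 13.3, 15 and 14.3 TPM in A4KO replicates 2, 3 and 5, and 13.7 and 10.3 TPM in A4KO replicates 1 and 4, and here the 2 sets overlapped. ID1, a direct BMP target, rose by 1.71 and held in both sets. BMP1 and CCN2, named because they were called, rose by 1.35 and 1.31 in both sets. ID3 was called with replicates 1 and 4 (1.54) and not with 2, 3 and 5 (0.80), and was below the threshold without A4KO replicate 1 (0.95).

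The falls were the ligand GDF5, from 15.03 ± 2.79 to 2.48 ± 1.03 TPM (SD, n = 4 and 5), and SMAD3, the receptor-regulated transducer of TGF-beta. SMAD3 was at 113, 116, 125 and 143 TPM in WT libraries 1 to 4, 57.2, 58.9 and 62.1 TPM in A4KO replicates 2, 3 and 5, and 60.4 and 59.8 TPM in A4KO replicates 1 and 4, a fall by 1.04 (adjusted p = 1.7e-05) that slipped under the fold threshold without WT replicate 4 (-0.97), which leaves 1 gene called lower. A4KO libraries were close to each other for SMAD3 in both sets.

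A few Wnt genes were called, in both directions. Among the 43 genes, 3 were called higher (LEF1, SFRP1 and WNT5A) and 2 lower (WNT7B and DKK1), and all 5 held in both sets. At the adjusted p alone 8 stood higher (18.6%) and 9 lower (20.9%), near the 17.9% and 21.1% of all genes. The median was -0.02, and its sign changed without WT replicate 1 (0.0004386) or WT replicate 2 (0.001201). WNT7B, a ligand of the canonical pathway, was at 20.1, 19.3, 15.1 and 8.63 TPM in WT libraries 1 to 4, 2.44, 2.60 and 2.91 TPM in A4KO replicates 2, 3 and 5, and 1.13 and 1.42 TPM in A4KO replicates 1 and 4, and DKK1, a secreted inhibitor, was at 19.1, 20.4, 12.8 and 11.2 TPM in WT libraries 1 to 4, 3.88, 5.51 and 5.19 TPM in A4KO replicates 2, 3 and 5, and 0.963 and 1.26 TPM in A4KO replicates 1 and 4. For both, replicates 1 and 4 were the lowest, and WT replicate 4 was the lowest of the WT. Their log2 differences were -2.41 (SE 0.26, adjusted p = 0.000178) and -2.08 (SE 0.39, adjusted p = 0.00312). WNT5A, a ligand of the non-canonical pathway, rose from 1.53 ± 0.223 to 4.42 ± 0.642 TPM (SD, n = 4 and 5). The transcription factor LEF1 rose by 1.31 and the decoy receptor SFRP1 by 1.26.

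Among EGF receptor family and ERK feedback genes, 3 of 30 were called higher and 1 lower, and 2 of these 4 held in both sets (adjusted p alone: 10 higher and 7 lower). NRG1, a ligand of ERBB3 and ERBB4, was at 29.5, 28.3, 29.7 and 28.1 TPM in WT libraries 1 to 4, 81.6, 84.4 and 82.1 TPM in A4KO replicates 2, 3 and 5, and 62.6 and 61.9 TPM in A4KO replicates 1 and 4, and FOSL1, an AP-1 subunit induced by ERK, was at 284, 326, 299 and 298 TPM in WT libraries 1 to 4, 119, 164 and 144 TPM in A4KO replicates 2, 3 and 5, and 53.3 and 53.8 TPM in A4KO replicates 1 and 4. FOSL1 fell with each set, by 1.09 with replicates 2, 3 and 5 and by 2.47 with replicates 1 and 4. AREG, an EGF receptor ligand, was called with replicates 2, 3 and 5 (1.32) and not with 1 and 4 (0.90), and SPRY1, an inhibitor of ERK signalling, was called with 1 and 4 (1.70) and not with 2, 3 and 5 (0.87). The list's median, 0.05, passed to the other side of 0 under quantile normalization (-0.02).

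Of 21 insulin and IGF genes 5 were called higher and 0 lower, while the adjusted p alone was passed by 9 higher and 5 lower. Of the 5, IGF2, IGFBP3 and IGFBP4 held in both sets. The median was 0.03, -0.001376 with replicates 2, 3 and 5 and 0.18 with 1 and 4, and it changed sign without WT replicate 4 (-0.01) or A4KO replicate 1 (-0.01). IGF2, a fetal growth factor, was at 0.103, 0.102, 0.0117 and 0.264 TPM in WT libraries 1 to 4, 18.0, 17.9 and 15.5 TPM in A4KO replicates 2, 3 and 5, and 27.2 and 24.2 TPM in A4KO replicates 1 and 4. In WT it was at most 0.264 TPM, where a fold is not well determined, and the log2 difference was 4.24 (SE 0.15, adjusted p = 5e-07). A read-through of INS and IGF2 shares its exons. IGFBP3, the main carrier of IGF in serum, was at 44.4, 26.0, 41.5 and 42.4 TPM in WT libraries 1 to 4, 288, 307 and 277 TPM in A4KO replicates 2, 3 and 5, and 569 and 550.2 TPM in A4KO replicates 1 and 4, and IGFBP4, which also binds IGF, rose by 1.77. IRS2 and IRS1 were called with replicates 1 and 4 only. IRS2 was below the threshold without A4KO replicate 4 (0.997), and IRS1 without WT replicate 1 (0.97) or A4KO replicate 4 (0.95), so that 3 genes were called higher without A4KO replicate 4.

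Keratins and junction genes were called in both directions. Of 39 keratin and junction genes 4 were called higher and 4 lower, and 5 of the 8 held in both sets (adjusted p alone: 12 higher and 15 lower). The median was -0.07. KRT19 was at 259.5, 256, 207 and 175 TPM in WT libraries 1 to 4, 17.5, 16.8 and 16.6 TPM in A4KO replicates 2, 3 and 5, and 9.78 and 10.1 TPM in A4KO replicates 1 and 4. KRT8 was at 1702, 1643, 1486 and 1223 TPM in WT libraries 1 to 4, 493, 566 and 498 TPM in A4KO replicates 2, 3 and 5, and 265 and 305 TPM in A4KO replicates 1 and 4, and its partner KRT18 was at 1175, 1072, 971 and 762 TPM in WT libraries 1 to 4, 383, 451 and 396 TPM in A4KO replicates 2, 3 and 5, and 223 and 259 TPM in A4KO replicates 1 and 4. In each of these keratins replicates 1 and 4 were the lowest libraries. The log2 differences were -3.92 (SE 0.20, adjusted p = 3.5e-06) for KRT19, -1.88 for KRT8 and -1.57 for KRT18. JUP, the plakoglobin of desmosomes and adherens junctions, rose from 24.4 ± 11.8 to 117 ± 46.6 TPM (SD, n = 4 and 5), and CLDN1, a tight junction claudin, rose by 1.56, both in both sets. CLDN4 was called lower with replicates 2, 3 and 5 (-1.19) and was not called with 1 and 4 (-0.89). CLDN16 and CLDN3 were called with 1 and 4 only. CLDN16 was below the threshold without WT replicate 2 (0.9964), and CLDN3 without A4KO replicate 1 (0.95) or 4 (0.92).

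Markers of renal epithelium were checked against the label of the line. PAX8, the transcription factor that marks kidney epithelium, was at 143, 165, 181 and 198 TPM in WT libraries 1 to 4, 174, 157 and 159 TPM in A4KO replicates 2, 3 and 5, and 230.1 and 209 TPM in A4KO replicates 1 and 4, with a log2 difference of 0.11 (adjusted p = 0.578), and the groups overlapped. HAVCR1, the kidney injury molecule, was at 238 ± 3.47 TPM in WT and 142 ± 20.3 TPM in A4KO (SD, n = 4 and 5). The markers PAX2 and CA9 were not in the table. CUBN and LRP2, endocytic receptors of the proximal tubule, were at means of 0.456 and 0.0400 TPM in WT, so that little of that differentiated state was seen in either group. CDH16 was at 0.513 TPM in WT and 1.44 TPM in A4KO, and NDUFA4L2 at 0.537 and 0.972 TPM. CDH6, a cadherin of the proximal tubule, was at 8.89 TPM in WT and 17.1 TPM in A4KO (log2 difference 0.90, adjusted p = 0.00157), under the fold threshold.

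Of 32 renal lineage transcription factors that were measured, 2 were called lower and 2 higher. At the adjusted p alone 7 stood higher (21.9%) and 6 lower (18.75%), beside 17.9% and 21.1% of all genes. The sign of the median, -0.004452, changed with a filter on low values (0.10), with median centring (0.01), and without WT replicate 1 (0.0002884), WT replicate 3 (0.003386), A4KO replicate 2 (0.01) or A4KO replicate 4 (0.0008732). POU3F3, a factor of the developing loop of Henle and distal tubule, was at 8.10, 6.76, 7.503 and 7.76 TPM in WT libraries 1 to 4, 0.0897, 0.0611 and 0.0782 TPM in A4KO replicates 2, 3 and 5, and 0.0720 and 0.0768 TPM in A4KO replicates 1 and 4. It was close to 0 in all 5 A4KO libraries, and the log2 difference of -2.99 (SE 0.05, adjusted p = 6.3e-09) was the same in the 2 sets (-2.98 with A4KO replicates 2, 3 and 5 and -2.99 with A4KO replicates 1 and 4). FOXC1, a forkhead factor, was at 10.2, 9.55, 8.70 and 9.07 TPM in WT libraries 1 to 4, 0.696, 0.875 and 0.533 TPM in A4KO replicates 2, 3 and 5, and 0.877 and 0.934 TPM in A4KO replicates 1 and 4. OSR2, a factor of the early kidney, rose by 1.004, and was called with replicates 2, 3 and 5 and not with 1 and 4. It was below the fold threshold without WT replicate 1 (0.99), WT replicate 4 (0.97) or A4KO replicate 2 (0.94) or 5 (0.89). In the list 0 were called higher without WT replicate 4 or A4KO replicate 2. Of 31 genes of tubule transport, 2 were called higher and 0 lower, VCAM1, described above among the cytokines, and KCNJ16, a potassium channel of the basolateral membrane, at 15.7, 16.6, 11.8 and 14.6 TPM in WT libraries 1 to 4, 56.9, 45.3 and 53.7 TPM in A4KO replicates 2, 3 and 5, and 107 and 105 TPM in A4KO replicates 1 and 4. Both held in both sets, and the median was 0.02 (-0.01 without A4KO replicate 4). The adjusted p alone was passed by 7 higher and 4 lower.

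Among HOX genes, which keep the positional identity of a tissue, the 4 that were called lower all lie in the HOXB cluster. All 37 listed HOX genes were in the table, and 0 were called higher and 4 lower, HOXB5, HOXB6, HOXB8 and HOXB9, of which 3 held in both sets (adjusted p alone: 4 higher and 15 lower). HOXB8 was at 23.5, 22.8, 21.7 and 21.5 TPM in WT libraries 1 to 4, 3.38, 2.80 and 2.44 TPM in A4KO replicates 2, 3 and 5, and 4.87 and 4.97 TPM in A4KO replicates 1 and 4, and HOXB6 was at 61.1, 52.8, 52.4 and 46.5 TPM in WT libraries 1 to 4, 13.2, 10.6 and 10.7 TPM in A4KO replicates 2, 3 and 5, and 13.1 and 18.8 TPM in A4KO replicates 1 and 4. The log2 differences were -2.35 (SE 0.16, adjusted p = 1.9e-05) and -1.95 (SE 0.16, adjusted p = 3.4e-05), and HOXB5 fell by 1.56. HOXB9 was called with replicates 2, 3 and 5 (-1.32) and just under the threshold with 1 and 4 (-0.98). The 9 HOXB genes lie together on chr17:48540894-48728750, and 8 of them, all but HOXB13, passed the adjusted p alone as lower, a split chosen after the values were seen. Of 10 HOXA, 9 HOXC and 9 HOXD genes, 2, 4 and 1 passed it as lower, and 4 HOXD genes passed it as higher. The clusters were not tested against each other. The median was -0.98 for HOXB, 0.05 for HOXA, -0.22 for HOXC and 0.06 for HOXD. For HOXA it was -0.11 with replicates 2, 3 and 5 and 0.27 with 1 and 4, for HOXB -1.02 and -0.92.

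**Figure D4:**
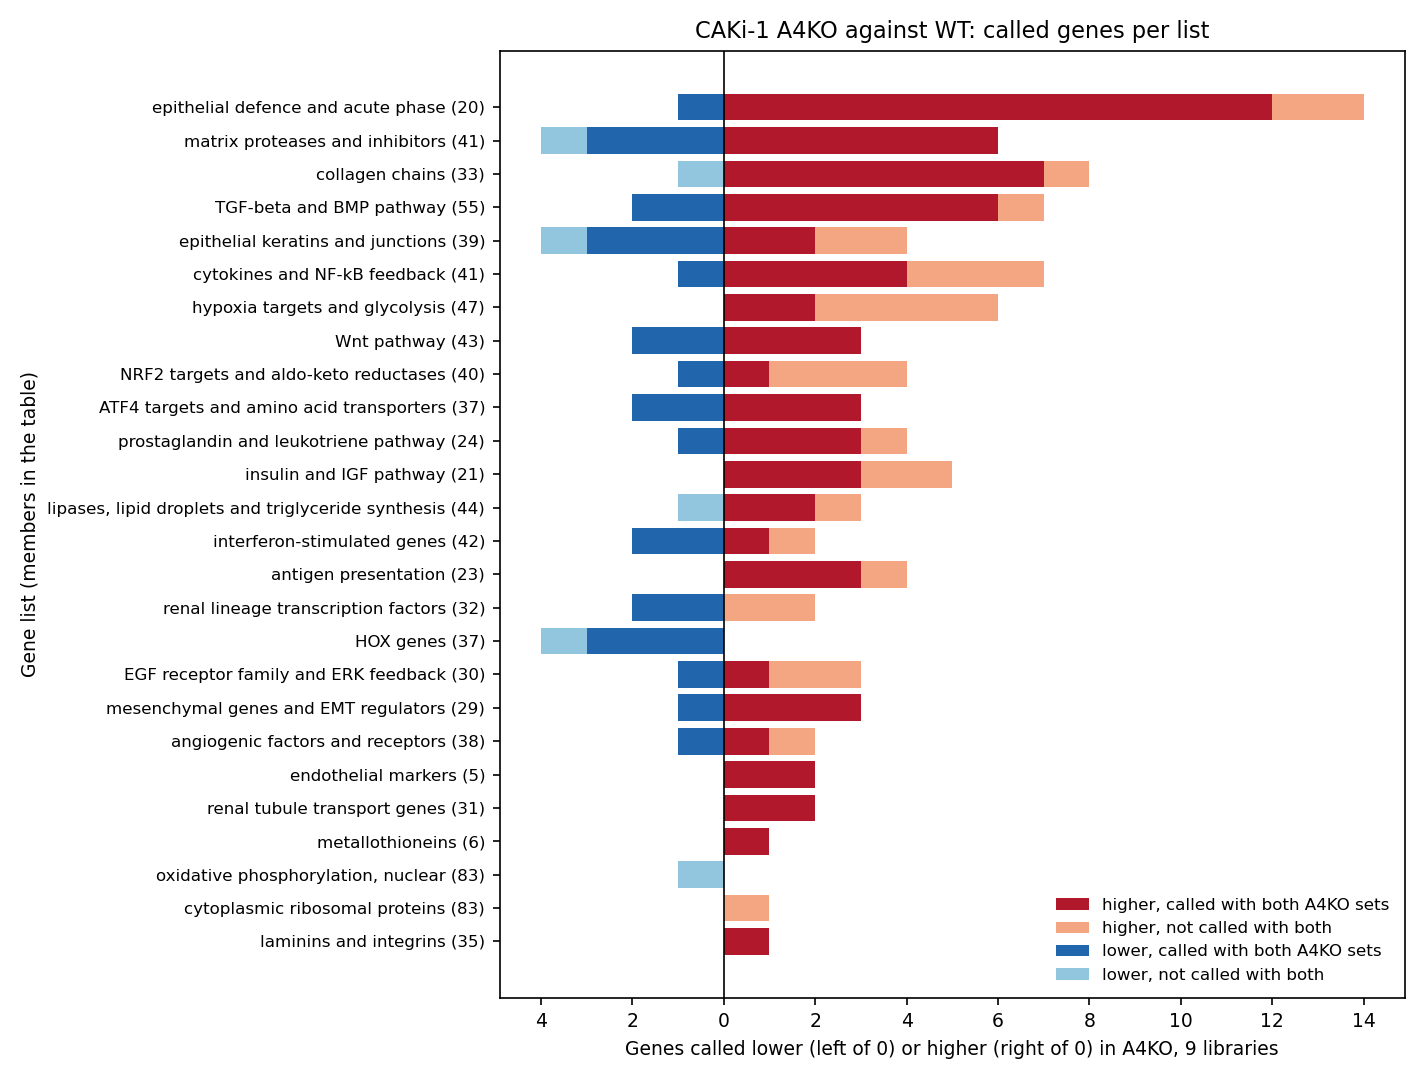
Number of genes called lower (left of 0) and higher (right of 0) in each list with at least 1 called gene, with the number of members in the table in brackets and the part called with both A4KO sets in the darker colour. The defence list had the most called genes, 14 higher and 1 lower, and the list of hypoxia targets had 6 called higher, of which 2 held in both sets.

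Among the 47 hypoxia targets and glycolysis genes, 6 were called higher and 0 lower, and only EPAS1 and ARNT2 held in both sets. With replicates 1 and 4 the calls were 8 higher and 0 lower, and with 2, 3 and 5 they were 2 and 1, beside 1084 and 412 calls over all genes. The adjusted p alone was passed by 8 higher (17.0%) and 14 lower (29.8%), beside 17.9% and 21.1% of all genes. With replicates 2, 3 and 5 it was passed by 8 higher and 20 lower, and with 1 and 4 by 20 and 14. Of all genes, 22.2% and 27.2% passed it as lower in these sets. The median was 0.07 with all libraries, -0.11 with replicates 2, 3 and 5 and 0.24 with replicates 1 and 4, and it changed sign without A4KO replicate 1 (-0.03) or A4KO replicate 4 (-0.05). EPAS1, which encodes HIF-2 alpha, was at 26.1, 24.2, 27.6 and 32.0 TPM in WT libraries 1 to 4, 109, 107 and 98.3 TPM in A4KO replicates 2, 3 and 5, and 118 and 129.6 TPM in A4KO replicates 1 and 4, a rise of 1.99 (SE 0.10, adjusted p = 2.7e-06) and of similar size in the 2 sets. ARNT2, a partner of HIF, rose from 0.987 ± 0.111 to 4.10 ± 0.693 TPM (SD, n = 4 and 5). Its rise also held in both sets. The other 4 were called with replicates 1 and 4 only. CA12, a carbonic anhydrase, was at 1.20, 1.23, 1.49 and 1.90 TPM in WT libraries 1 to 4, 4.40, 3.39 and 3.75 TPM in A4KO replicates 2, 3 and 5, and 12.7 and 11.02 TPM in A4KO replicates 1 and 4. DDIT4, an inhibitor of mTORC1, had a log2 difference of 1.94 with replicates 1 and 4 and 0.86 with the others. BHLHE41 and NDRG1 are named because they were called. BHLHE41 was below the threshold without WT replicate 2 (0.87) or A4KO replicate 1 (0.98). NDRG1 lost its call without WT replicate 1, 2, 3 or 4 (adjusted p = 0.0759, 0.0928, 0.0835 and 0.0875) and without A4KO replicate 1 or 4 (adjusted p = 0.0716 and 0.0769). GAPDH, the most abundant gene of the list, was at 6450.3 ± 89.8 TPM in WT and 4511 ± 115 TPM in A4KO (SD, n = 4 and 5).

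Of 38 angiogenic factors and receptors 2 were called higher and 1 lower. At the adjusted p alone 9 stood higher (23.7%) and 6 lower (15.8%), beside 17.9% and 21.1% of all genes. The sign of the median, 0.01 (-0.01 with replicates 2, 3 and 5 and 0.02 with 1 and 4), changed under a filter on low values (-0.11), under quantile normalization (-0.03), and without WT replicate 1 (-0.01), WT replicate 2 (-0.02), A4KO replicate 1 (-0.01), A4KO replicate 2 (-0.001693) or A4KO replicate 4 (-0.02). SEMA3F, a semaphorin that repels endothelial cells, was at 4.23, 3.95, 4.30 and 3.12 TPM in WT libraries 1 to 4, 27.9, 29.0 and 27.3 TPM in A4KO replicates 2, 3 and 5, and 29.3 and 33.0 TPM in A4KO replicates 1 and 4, a rise of 2.63 (SE 0.09, adjusted p = 3e-07) in both sets. FGF1, a growth factor of many cell types, fell from 6.67 ± 0.642 to 1.21 ± 0.431 TPM (SD, n = 4 and 5) in both sets. SEMA3C was called with replicates 1 and 4 only and was below the threshold without A4KO replicate 1 (0.97) or 4 (0.95), which leaves 1 called higher. The number called lower was 2 without WT replicate 4 or A4KO replicate 5.

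Of 44 genes of lipases, lipid droplets and triglyceride synthesis 3 were called higher and 1 lower, and LIPG and FABP6 held in both sets. At the adjusted p alone 11 stood higher (25%) and 9 lower (20.45%), beside 17.9% and 21.1% of all genes. The 9 lower became 5 without WT replicate 2. LIPG, the endothelial lipase, whose activity ANGPTL proteins are known to inhibit, was at 0.734, 0.806, 1.504 and 2.29 TPM in WT libraries 1 to 4, 5.48, 5.08 and 4.42 TPM in A4KO replicates 2, 3 and 5, and 5.38 and 6.95 TPM in A4KO replicates 1 and 4. FABP6, a bile acid binding protein, rose from 2.97 ± 1.07 to 9.48 ± 0.467 TPM (SD, n = 4 and 5). ACSL4, which activates arachidonic acid, was called with replicates 1 and 4 only (2.13 against 0.72) and lost its call without WT replicate 1 or 2 (adjusted p = 0.0541 and 0.0521). ACSL5 was called lower (-1.004) at the edge of the threshold. It was above -1 without WT replicate 3 (-0.9989), WT replicate 4 (-0.95), or A4KO replicate 2 (-0.99), 3 (-0.99) or 5 (-0.99). The median of the list was 0.08.

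Of 59 lysosomal genes 0 were called with limma. The adjusted p alone was passed by 19 higher and 15 lower, an unadjusted p under 0.05 by 22 and 18, and the median was 0.01, 0.01 with replicates 2, 3 and 5 and 0.20 with 1 and 4, where 3 genes were called higher. It changed sign without A4KO replicate 4 (-0.02). The 19 became 11 without WT replicate 1 or 2, 10 without WT replicate 3, 12 without A4KO replicate 1 and 11 without A4KO replicate 4, and 1 gene was called without A4KO replicate 3 or 5. LIPA, the lysosomal acid lipase that the paper studies, was at 25.1, 24.3, 23.9 and 21.1 TPM in WT libraries 1 to 4, 33.1, 33.8 and 33.2 TPM in A4KO replicates 2, 3 and 5, and 33.3 and 33.9 TPM in A4KO replicates 1 and 4. It was higher in every A4KO library and the same in the 2 sets, with a log2 difference of 0.49 (SE 0.06, adjusted p = 0.000210), under the fold threshold. LIPA is named because of its place in the paper.

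Of 37 ATF4 targets and amino acid transporters 3 were called higher and 2 lower, and all 5 held in both sets (adjusted p alone: 12 higher and 9 lower). The median, -0.01 (0.09 with replicates 2, 3 and 5 and -0.13 with 1 and 4), changed sign under a filter on low values (0.01), quantile normalization (0.07) and median centring (0.01), and without WT replicate 1 (0.002177), WT replicate 2 (0.03), WT replicate 3 (0.01), A4KO replicate 1 (0.04) or A4KO replicate 4 (0.02). SLC7A5, the large neutral amino acid transporter, was at 172, 185, 144 and 142 TPM in WT libraries 1 to 4, 58.4, 72.7 and 68.7 TPM in A4KO replicates 2, 3 and 5, and 34.0 and 33.9 TPM in A4KO replicates 1 and 4, and SLC7A7, a transporter of cationic amino acids, was at 4.55, 4.55, 4.06 and 4.76 TPM in WT libraries 1 to 4, 16.9, 13.3 and 11.3 TPM in A4KO replicates 2, 3 and 5, and 28.7 and 25.9 TPM in A4KO replicates 1 and 4. The former was lowest and the latter highest in replicates 1 and 4. STC2, a secreted ATF4 target, fell from 391 ± 38.5 to 90.3 ± 21.3 TPM (SD, n = 4 and 5), a log2 difference of -2.13 (adjusted p = 2.7e-05). CBS, which starts transsulfuration, rose by 1.07. SLC1A3, a glutamate transporter, rose by 1.02 and was below the threshold without WT replicate 1 (0.93), WT replicate 2 (0.99) or A4KO replicate 4 (0.99).

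Of 40 NRF2 targets and aldo-keto reductases 4 were called higher and 1 lower, and CYP1B1 and UGT1A6 held in both sets (adjusted p alone: 9 higher and 14 lower). The median was -0.07, -0.12 with replicates 2, 3 and 5 and 0.04 with 1 and 4. CYP1B1, a cytochrome P450 that oxidises estrogens and is a target of the aryl hydrocarbon receptor, was at 9.42, 10.4, 10.7 and 17.4 TPM in WT libraries 1 to 4, 106, 90.7 and 98.8 TPM in A4KO replicates 2, 3 and 5, and 195 and 159.7 TPM in A4KO replicates 1 and 4. UGT1A6, a glucuronosyltransferase, was at 55.2, 47.4, 50.3 and 43.3 TPM in WT libraries 1 to 4, 5.24, 6.67 and 5.47 TPM in A4KO replicates 2, 3 and 5, and 9.87 and 7.90 TPM in A4KO replicates 1 and 4, and shares exons with the other genes of its cluster. FTH1, the ferritin heavy chain, was at 4807, 4949, 5943 and 8180.4 TPM in WT libraries 1 to 4, 10296, 8779.8 and 11441 TPM in A4KO replicates 2, 3 and 5, and 17954 and 19297 TPM in A4KO replicates 1 and 4, and was called with replicates 1 and 4 only. GPX3 and AKR1B1 were also called with 1 and 4 only. GPX3 was below the threshold without WT replicate 2 (0.96), A4KO replicate 1 (0.96) or 4 (0.97), and AKR1B1 without WT replicate 1 (0.89) or 2 (0.95). Without WT replicate 2, 2 genes were called higher. The number called lower was 3 without WT replicate 4 or A4KO replicate 1 and 2 without A4KO replicate 3.

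Of the 6 metallothioneins in the table, MT1F was called higher, at 23.2, 17.1, 23.3 and 23.3 TPM in WT libraries 1 to 4, 57.3, 52.7 and 58.9 TPM in A4KO replicates 2, 3 and 5, and 77.5 and 70.7 TPM in A4KO replicates 1 and 4, in both sets. These zinc-binding proteins have near-identical genes, so reads may have been shared among them. The median was 0.27 (adjusted p alone: 3 higher and 1 lower), and 2 were called without WT replicate 4 or A4KO replicate 1 or 4. MT2A, the most abundant, was at 5717 ± 1133 TPM in WT and 7579 ± 749 TPM in A4KO (SD, n = 4 and 5) and the groups overlapped.

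Genes of DNA replication and mitosis were lower chiefly in A4KO replicates 1 and 4. All 54 were in the table and 0 were called with all libraries by limma. Still, 25 passed the adjusted p alone as lower (46.3%, beside 21.1% of all genes) and none as higher. An unadjusted p under 0.05 was met by 34 as lower, beside 25.9% of all genes. With replicates 1 and 4 alone, 25 were called lower and 53 passed the adjusted p as lower, beside 2.68% and 27.2% of all genes. With replicates 2, 3 and 5 alone, 0 were called, and 30 passed the adjusted p as lower and 4 as higher. Of all genes, 22.2% passed it as lower in that set. The median was -0.53 with all libraries, -0.22 with replicates 2, 3 and 5 and -0.98 with 1 and 4. Library by library, the median deviation from the WT mean was -0.27, -0.17 and -0.18 in A4KO replicates 2, 3 and 5 and -0.97 and -0.98 in replicates 1 and 4, and -0.01, 0.02, 0.02 and -0.04 in WT replicates 1 to 4. The 25 genes became 16 without WT replicate 1, 15 without WT replicate 2 and 13 without WT replicate 3, and 1 was called lower without A4KO replicate 2, 3 or 5. The list does not hold every gene of these processes. Outside it ORC6, CEP55, CDCA3 and SHCBP1, picked with their values seen, were called lower with all libraries. Each lost its call without A4KO replicate 1 and also without A4KO replicate 4. In bulk RNA, fewer cycling cells and less RNA per cycling cell cannot be told apart.

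The examples from this list were picked with their values already seen. PLK1, a mitotic kinase, was at 146, 149.9, 155 and 143 TPM in WT libraries 1 to 4, 99.0, 100.1 and 96.6 TPM in A4KO replicates 2, 3 and 5, and 54.7 and 51.3 TPM in A4KO replicates 1 and 4. CCNB1, the mitotic cyclin, was at 251, 256, 256 and 245 TPM in WT libraries 1 to 4, 170.0, 176 and 181 TPM in A4KO replicates 2, 3 and 5, and 103 and 101 TPM in A4KO replicates 1 and 4. Their log2 differences were -0.58 with A4KO replicates 2, 3 and 5 and -1.47 with A4KO replicates 1 and 4 for PLK1 and -0.52 with A4KO replicates 2, 3 and 5 and -1.30 with A4KO replicates 1 and 4 for CCNB1. TYMS, the thymidylate synthase and the most abundant gene of the list by the mean of all 9 libraries (in WT CCNB1 was), stood at 234, 227, 233 and 229 TPM in WT libraries 1 to 4, 254, 252 and 249 TPM in A4KO replicates 2, 3 and 5, and 138 and 139 TPM in A4KO replicates 1 and 4, above WT in replicates 2, 3 and 5 and below it in 1 and 4. Summed over the list, the level was 4216, 4274, 4317 and 4161 TPM in WT, 3497, 3663 and 3678 TPM in A4KO replicates 2, 3 and 5 and 2102 and 2081 TPM in replicates 1 and 4. The difference between the sets was not tested.

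Of 28 p53 targets and CDK inhibitors 0 were called by limma, 14 passed the adjusted p alone as lower and 3 as higher (unadjusted p under 0.05: 14 and 4), and the median was -0.19, -0.26 with replicates 2, 3 and 5 and -0.21 with 1 and 4. CDKN1A, the p21 inhibitor of CDKs, chosen after its values were seen, was at 198, 212, 198 and 208 TPM in WT libraries 1 to 4, 152, 145 and 142 TPM in A4KO replicates 2, 3 and 5, and 160.0 and 155 TPM in A4KO replicates 1 and 4. It was lower in every A4KO library, with a log2 difference of -0.43 (adjusted p = 0.000265). GDF15, the most abundant of the list by the mean of all 9 libraries (in WT BAX was), stood at 274 ± 136 TPM in WT and 417 ± 139.8 TPM in A4KO (SD, n = 4 and 5), with overlap.

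**Figure D5:**
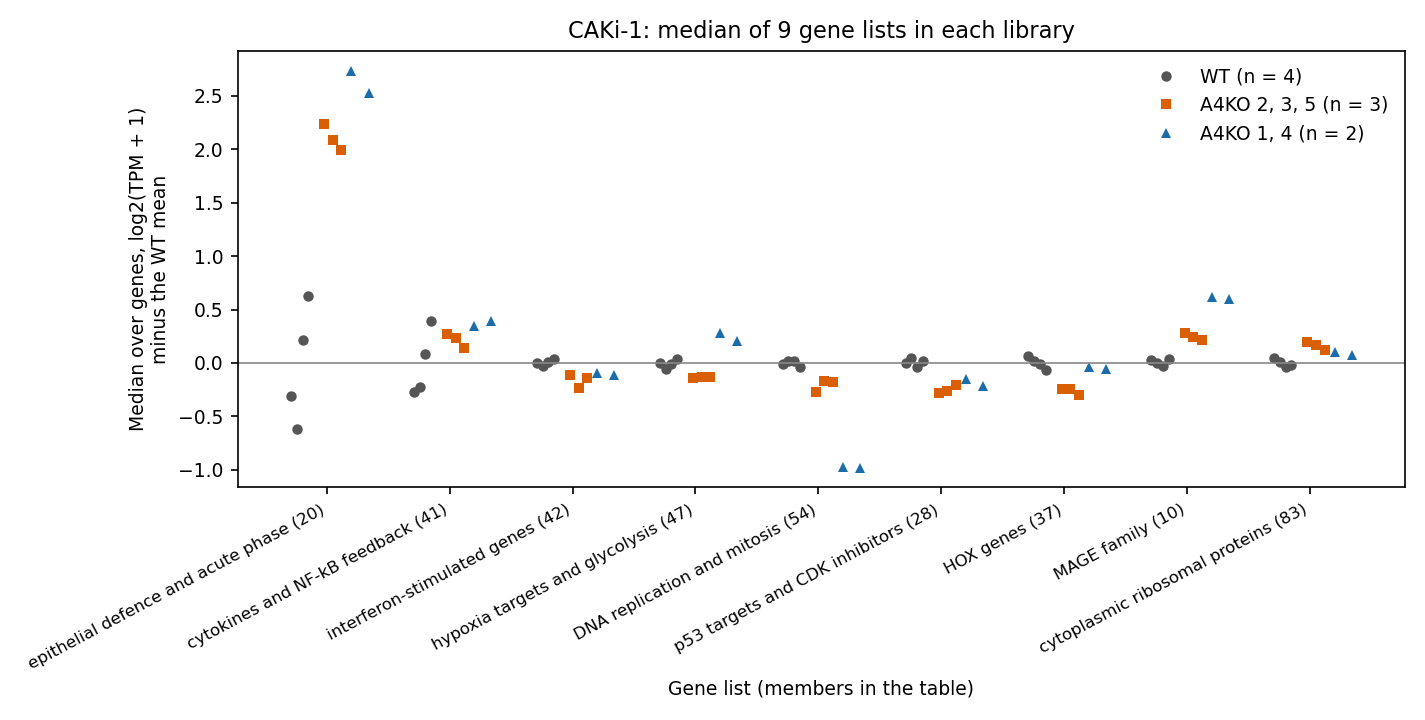
Median of 9 lists in each library, as log2(TPM + 1) minus the mean of the 4 WT libraries for each gene, with the number of genes in brackets. Replication genes lay at -0.97 and -0.98 in A4KO replicates 1 and 4 and nearer to 0 in the other libraries (-0.27, -0.17 and -0.18 in replicates 2, 3 and 5), whereas the defence list was raised in all 5.

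The MAGE family, germline and cancer antigens, gave no calls: 0 of 10 were called by limma, and 7 passed the adjusted p alone as higher and 0 as lower (unadjusted p under 0.05: 8 and 0), with a median of 0.40, 0.23 in replicates 2, 3 and 5 and 0.60 in 1 and 4. MAGED2, the most abundant, went from 232 ± 10.9 to 318 ± 47.9 TPM (SD, n = 4 and 5). The 7 became 4 without WT replicate 1, 2 or 3.

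In oxidative phosphorylation, of 83 nuclear genes 0 were called higher and 1 lower, the pseudogene ATP5MC1P4, which the name pattern took in. It was called with replicates 1 and 4 only, and was at -0.99 without A4KO replicate 4, which leaves 0. The adjusted p alone was passed by 7 higher (4 without WT replicate 3) and 15 lower, and the median was -0.05, 0.01 with replicates 2, 3 and 5 and -0.13 with 1 and 4. All 13 mitochondrial genes gave 0 calls with limma and a median of 0.01, -0.08 with replicates 2, 3 and 5 and 0.14 with 1 and 4. At the adjusted p alone 0 stood higher and 1 lower, and an unadjusted p under 0.05 was met by 0 and 3. That 1 became 4 without WT replicate 4, 2 without A4KO replicate 5, and 0 without WT replicate 1, 2 or 3 or A4KO replicate 2, 3 or 4. Both medians changed sign under quantile normalization, to 0.02 and -0.16, and the mitochondrial one without WT replicate 4 (-0.04), A4KO replicate 1 (-0.02), A4KO replicate 4 (-0.03) or A4KO replicate 5 (-0.04). Of 83 cytoplasmic ribosomal proteins 1 was called higher and 0 lower, RPL22L1, a paralog of RPL22, at 106, 107, 96.9 and 115 TPM in WT libraries 1 to 4, 255, 254 and 268 TPM in A4KO replicates 2, 3 and 5, and 212 and 192 TPM in A4KO replicates 1 and 4. It was called with replicates 2, 3 and 5 (1.28) and not with 1 and 4 (0.92). In this list 36 passed the adjusted p alone as higher (28 without WT replicate 3) and 7 as lower (2 without WT replicate 1), with a median of 0.13.

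Markers of other cells that a culture could hold were counted as well. Of 11 endothelial markers 5 were in the table, and TIE1 and PECAM1 were called higher, 2 of 5, in both sets (adjusted p alone: 3 higher and 0 lower). TIE1, a receptor kinase, was at 0.257, 0.339, 0.304 and 0.244 TPM in WT libraries 1 to 4, 4.23, 3.92 and 5.00 TPM in A4KO replicates 2, 3 and 5, and 4.69 and 5.01 TPM in A4KO replicates 1 and 4, and PECAM1, which is CD31, was at 0.209, 0.315, 0.555 and 0.361 TPM in WT libraries 1 to 4, 1.97, 1.54 and 2.32 TPM in A4KO replicates 2, 3 and 5, and 6.17 and 4.46 TPM in A4KO replicates 1 and 4. Summed, the markers held 2.15, 2.37, 3.00 and 2.60 TPM in WT, 8.86, 7.26 and 9.44 TPM in A4KO replicates 2, 3 and 5 and 12.1 and 11.1 TPM in 1 and 4, with TIE1 the most abundant by the mean of all 9 libraries and EMCN the most abundant in WT. The defining markers VWF, CDH5, KDR, TEK, CLDN5 and ERG were not in the table. The median was 0.22. Of 15 leukocyte markers 8 were in the table and 0 were called by limma (adjusted p alone 1 higher and 1 lower, the latter 2 without A4KO replicate 5; unadjusted p under 0.05: 1 and 2). They summed to 64.9, 64.9, 67.0 and 67.3 TPM in WT, 62.5, 57.5 and 57.3 TPM in replicates 2, 3 and 5 and 67.2 and 68.8 TPM in 1 and 4. CD68, a lysosomal protein that other cells also make, was the most abundant of them, and CD3E, CD3D, MS4A1 and NKG7 were not in the table. The median was -0.08.

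Of 11 fibroblast and pericyte markers 8 were in the table and 0 were called by limma, with 0 higher and 3 lower at the adjusted p alone (1 without WT replicate 1, 2 or 3) and 1 and 3 at an unadjusted p under 0.05. Their sum was 151, 136, 137 and 110.4 TPM in WT, 115, 114 and 100 TPM in A4KO replicates 2, 3 and 5 and 84.0 and 101 TPM in 1 and 4, and MCAM was the most abundant. MCAM, an adhesion molecule that tumour cells share, was lower in every A4KO library, though under the fold threshold (-0.46, adjusted p = 0.0326). PDPN, DPT and ACTG2 were not in the table. The list's median of 0.01 (-0.01 with replicates 2, 3 and 5 and 0.01 with 1 and 4) changed sign under a filter on low values (-0.52) and under quantile normalization (-0.02), and without WT replicate 2 (-0.04), WT replicate 4 (-0.03), A4KO replicate 1 (-0.02) or A4KO replicate 5 (-0.01). The part of any such cells in the rise of collagens and FN1 was not tested, and 0 of these markers were called higher.

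Several of the largest changes belonged to no list. TNFRSF11B, which encodes osteoprotegerin, a decoy receptor of RANKL, was at 2.43, 3.06, 4.95 and 11.2 TPM in WT libraries 1 to 4, 75.4, 65.4 and 64.3 TPM in A4KO replicates 2, 3 and 5, and 169 and 156 TPM in A4KO replicates 1 and 4. C15orf48, a mitochondrial protein induced by inflammation, was at 12.2, 15.2, 43.8 and 129 TPM in WT libraries 1 to 4, 414, 352 and 323 TPM in A4KO replicates 2, 3 and 5, and 727 and 692 TPM in A4KO replicates 1 and 4. In both, WT replicate 4 was the highest of the WT and replicates 1 and 4 the highest of A4KO. FAM20C, the kinase that phosphorylates secreted proteins in the Golgi, was at 0.947, 1.07, 1.40 and 1.20 TPM in WT libraries 1 to 4, 38.0, 30.5 and 32.1 TPM in A4KO replicates 2, 3 and 5, and 36.3 and 37.1 TPM in A4KO replicates 1 and 4. It showed little spread in either group and rose alike in the 2 sets (4.00 with A4KO replicates 2, 3 and 5 and 4.13 with A4KO replicates 1 and 4). SLCO2B1, an organic anion transporter, rose by 3.96, the sortilin-like receptor SORCS2 by 3.32 and the pseudogene WFDC21P by 3.35, and all 3 held in both sets.

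Among the falls outside the lists were PADI2, which turns arginine to citrulline in proteins, and GPRC5A, an orphan receptor of epithelia. PADI2 was at 67.9, 48.6, 53.3 and 36.9 TPM in WT libraries 1 to 4, 5.20, 4.91 and 5.56 TPM in A4KO replicates 2, 3 and 5, and 4.57 and 4.67 TPM in A4KO replicates 1 and 4, and GPRC5A was at 89.4, 82.7, 79.6 and 69.8 TPM in WT libraries 1 to 4, 14.4, 17.4 and 18.1 TPM in A4KO replicates 2, 3 and 5, and 8.17 and 11.9 TPM in A4KO replicates 1 and 4. The neuronal tubulin TUBB3 was at 249.7, 255, 221 and 168 TPM in WT libraries 1 to 4, 51.9, 54.5 and 52.8 TPM in A4KO replicates 2, 3 and 5, and 27.7 and 30.4 TPM in A4KO replicates 1 and 4. RNF212, a factor of meiotic recombination, was at 8.19, 8.13, 6.6 and 6.88 TPM in WT libraries 1 to 4, 0.459, 0.248 and 0.0658 TPM in A4KO replicates 2, 3 and 5, and 0.357 and 0.131 TPM in A4KO replicates 1 and 4. SYTL2, an effector of RAB27, and NAV2, which acts on the cytoskeleton, fell by 2.53 and 2.26 on the log2 scale. Each of these falls held in both sets. In all, the 33 lists held 1138 genes of the table and 128 of the 543 called genes, so that 415 called genes were in no list.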

How the data were processed

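RNA sequencing of 4 WT and 5 A4KO CAKi-1 libraries was analysed. Reads had been quantified by the authors with Kallisto on hg38. The deposited values were taken to be TPM because they are not whole numbers and each library sums to between 961437 and 973887. The way transcripts were summed to genes is not given. The stated depth is 3000000 reads per sample, and the depth of each library is unknown.

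A linear model of log2(TPM + 1) on genotype was fitted with limma 3.58.1 (lmFit, eBayes; R 4.3.3). All 16296 genes were kept, and two-sided p-values were adjusted across them by Benjamini and Hochberg. Calls needed an adjusted p of 0.05 or less together with an absolute log2 difference of 1 or more. The same fit was run with A4KO replicates 2, 3 and 5 and with A4KO replicates 1 and 4, each against all WT libraries. Lists were described by counts and medians, without a set test. The method was tested on simulated data. Counts, medians and figures were made with Python 3.11.15 (pandas 2.3.3, numpy 2.4.6, scipy 1.17.1), coordinates are from GENCODE release 44, in which 16290 symbols were found, and promoters from RefSeq.

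The members and the 33 lists were chosen with earlier results of these data known. Named genes are ANGPTL4, the 15 called genes that rose most and the 15 that fell most with no overlap of groups, chemokine ligands set aside, the 4 largest called rises and falls of each list, and the renal markers. A few genes that this rule takes in are not reported here, which leaves 121. Genes named outside this rule were chosen after their values were seen. Alternatives were a pseudocount of 0.1, a mean TPM of at least 1, quantile normalization, median centring, eBayes with trend and robust options, the replicate number as a block, treat against a log2 difference of 1, each library left out, and, chosen after seeing the data, WT replicates 1 and 2 only.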

Additional observations from a re-analysis of the deposited data

Results flagged for a closer look

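Within a group, 9 of 242 tests over the named genes found a library that stood apart from the rest of its group by Dixon's test, and chance alone gives about 1 in 20. In WT replicate 1, TGFB2 was at 3.78 TPM against 2.77 to 2.90 TPM in the other WT libraries, HOXB5 at 8.63 TPM against 6.86 to 7.07 TPM, HAVCR1 at 233 TPM against 239.6 to 240.4 TPM and LRP2 at 0.109 TPM against 0.0115 to 0.0274 TPM. In WT replicate 2, IGFBP3 was at 26.0 TPM against 41.5 to 44.4 TPM and MT1F at 17.1 TPM against 23.2 to 23.3 TPM. In WT replicate 4, INHBA was at 211 TPM against 156 to 162 TPM.

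Among A4KO libraries, replicate 1 stood apart for LRP2, at 0.0782 TPM against 0.000906 to 0.0193 TPM. Replicate 5 stood apart for PTGS1, at 1.998 TPM against 1.42 to 1.55 TPM. LRP2 is so low that its values carry little information, and the calls of TGFB2, HOXB5, IGFBP3, MT1F, INHBA and PTGS1 were kept without each single library. WT replicates 1 and 2 held 6 of the 9 values. No technical or biological source of these values was tested.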

How the results depend on the processing

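The number of called genes (543 with all libraries, 412 with A4KO replicates 2, 3 and 5, and 1084 with replicates 1 and 4) depended on the pseudocount and on the test of the fold. A pseudocount of 0.1 gave 1077, 848 and 1927, since it enlarges differences of genes with low levels. The treat test against a log2 difference of 1 gave 112, 100 and 258, since it asks that the difference exceed 1 and not only that it be other than 0. With WT replicates 1 and 2 only, an alternative chosen after seeing the data, 3806 genes passed the adjusted p alone in place of 6348, with fewer samples in the fit. Leaving out each library in turn gave 477 to 608 called genes, 377 to 467 with A4KO replicates 2, 3 and 5, 1033 to 1164 with replicates 1 and 4, and 4959 to 6510 past the adjusted p alone. ANGPTL4 then lay between -4.13 and -3.86 on the log2 scale.

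Among the genes that the naming rule took, 113 were called. None of these changed direction under an alternative, whereas the medians of several lists changed sign. Of the 113 genes, 96 kept the call whichever library was left out. They were named mostly for the size of their change, so these counts do not stand for all 543 called genes. With replicate number as a block 603 genes were called and 5609 passed the adjusted p alone. A4KO replicate 5 is then alone in its block and has no weight, so the log2 differences equal those without it. The deviations of libraries with the same number were not related (r across 12742 genes between -0.06 and 0.13), and the block was not used. TPM keeps no depth, so counting error at low levels cannot be separated from the rest. The WT libraries are shared by both A4KO sets, and whether the sets are separate cultures, clones or batches is not stated.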

Other observations

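The single genes given here were chosen after their values were seen, from called genes outside the lists, and say nothing of the other members of their pathways. JAG1, a Notch ligand, was at 5.38, 5.82, 4.49 and 3.98 TPM in WT libraries 1 to 4, 47.3, 46.2 and 47.7 TPM in A4KO replicates 2, 3 and 5, and 23.3 and 26.8 TPM in A4KO replicates 1 and 4. NOTCH3, a receptor, rose by 1.28, LFNG, which glycosylates Notch, by 1.19, and the target HES1 by 1.28 on the log2 scale (limma adjusted p = 4.6e-05, 7.7e-05 and 0.000357). The ligand JAG2 went the other way, with a log2 difference of -1.14 (adjusted p = 0.000257). JAG1, NOTCH3 and LFNG were called with each A4KO set, HES1 with replicates 2, 3 and 5 only (1.495, against 0.97 with replicates 1 and 4), and JAG2 with replicates 1 and 4 only (-0.9957 with the others). The prolyl hydroxylase P3H3 and the collagen chaperone FKBP10 rose by 1.24 and 1.32 in both sets, and P3H1 and P3H4 by 1.07 and 1.12, called with replicates 1 and 4 only. FBN1, the fibrillin of microfibrils, was at 15.6, 14.9, 17.0 and 14.9 TPM in WT libraries 1 to 4, 35.2, 32.9 and 36.5 TPM in A4KO replicates 2, 3 and 5, and 73.7 and 74.3 TPM in A4KO replicates 1 and 4.

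RUNX3, a transcription factor of T cells, was at 0.163, 0.109, 0.437 and 0.177 TPM in WT libraries 1 to 4, 6.54, 4.52 and 5.57 TPM in A4KO replicates 2, 3 and 5, and 6.73 and 5.63 TPM in A4KO replicates 1 and 4, and CD83, a marker of mature dendritic cells, was at 2.43, 2.38, 3.08 and 3.56 TPM in WT libraries 1 to 4, 24.8, 19.9 and 20.2 TPM in A4KO replicates 2, 3 and 5, and 18.1 and 19.5 TPM in A4KO replicates 1 and 4. PLEK, a substrate of protein kinase C in platelets, rose by 1.76 on the log2 scale. Among the falls, CCND1, the G1 cyclin, was at 131, 153, 139 and 129.6 TPM in WT libraries 1 to 4, 39.7, 45.3 and 47.5 TPM in A4KO replicates 2, 3 and 5, and 30.7 and 31.6 TPM in A4KO replicates 1 and 4, HMGA1, a chromatin protein, fell by 1.69 and FLNC, a filamin of muscle, by 1.89 on the log2 scale. The neighbours of PADI2 on chromosome 1, PADI1 and PADI3, fell by 1.47 and 1.22. All the single genes named in this paragraph were called with each A4KO set.

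Over genes with a mean of at least 3 TPM, the median log2 difference of a chromosome ran from -0.22 for chromosome 10 (439 genes) and -0.21 for chromosome 11 (654 genes) to 0.09 for chromosome 19 (745 genes). With A4KO replicates 2, 3 and 5 the value for chromosome 10 was -0.22, and with replicates 1 and 4 it was -0.22.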
